A study of Mus musculus with 8 samples.

Results

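The t complex occupies the proximal part of mouse chromosome 17. It was taken here as the 36 Mb from 4 to 40 Mb on mm9, and its members were the Brdt islands that start within those limits. An island is a stretch in which the program SICER found more reads from the anti-Brdt chromatin immunoprecipitation (ChIP) than its control predicts. The region held 434 of 36615 islands in wild-type spermatocytes and 996 of 74968 in round spermatids of the same genotype, and for BD1del 1505 of 112671 in spermatocytes and 2874 of 201828 in round spermatids. That is 5809 of 426082 islands over the 4 lists, and no island lay across either limit. Values of the 4 lists are given in this order throughout.

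Brdt is the testis-specific member of the BET family, proteins whose tandem bromodomains bind acetylated histone tails. In spermatocytes it is known as a regulator of the meiotic and later germ-cell programme, and in maturing spermatids it takes part in the removal of histones. The t complex is known from t haplotypes, variant forms of the region with inversions that suppress recombination, and from the preferential transmission of those haplotypes by heterozygous males. Genes of sperm function and, towards its distal end, the major histocompatibility complex lie in it. No label names a t haplotype, and the region stands here for positions on the mm9 reference.

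Brdt was mapped in cells fractionated from adult testes at a meiotic stage, spermatocytes, and at a post-meiotic stage, round spermatids. The control mice were wild type, of the strain C57BL/6, with 10 mice pooled for a fractionation, and their chromatin was cut with MNase to fragments of about 200 bp. The other mice carried BD1del, which removes the first bromodomain of Brdt; the sources used here do not give their strain, pool size or chromatin preparation. Each combination of genotype and stage had 1 ChIP library and 1 input library, so no difference below can be set against a spread between replicates and no test between groups was made. Per their labels, the wild-type lists come from F3 tags and the BD1del lists from paired F3 and F5 tags. Genotype and read set therefore cannot be told apart in any difference between wild type and BD1del.

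Read counts within the members differed between the lists, and so did the form of the islands in the t-complex region. These counts depend on the number and length of the islands and are not library sizes. The members held 66954 ChIP reads and 72403 control reads in wild-type spermatocytes, and 57986 and 91651 in round spermatids of the same genotype. In BD1del they held 73532 and 113361 in spermatocytes and 93249 and 98365 in round spermatids. The median member was 2400 bases long in wild-type spermatocytes and 1400 in round spermatids of the same genotype, and for BD1del 1200 in spermatocytes and 600 in round spermatids. Members of a single 200-base window made up 3.23% of the first list and 8.03%, 7.91% and 37.9% of the others. The deposited fold, ChIP over control reads scaled by library size, had a median of 1.79, 2.82, 4.08 and 7.37 over the members in the same order. The ratio of control to ChIP library size was 1.79, 3.79, 5.64 and 5.45 in that order. The BD1del round spermatid list thus had the most, shortest and highest-fold members, and fold levels of different lists are not directly comparable.

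Islands covered 3.33% of the t-complex region in wild-type spermatocytes and 4.45% in round spermatids of the same genotype. For BD1del they covered 5.74% in spermatocytes and 5.66% in round spermatids. On the rest of chromosome 17, from 40 Mb on, the shares were 3.29%, 4.85%, 6.41% and 5.78%. The region was thus covered 1.01 times as much as the rest of its chromosome in wild-type spermatocytes, and 0.917, 0.896 and 0.979 times as much in the other lists. The order of the 4 lists was the same in both parts, with wild-type spermatocytes lowest and BD1del spermatocytes highest. The first ratio fell below 1, to 0.980, without the last Mb of the region.

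Fewer islands per Mb started in the t-complex region than on the rest of the chromosome in every list. Their density was 12.1, 27.7, 41.8 and 79.8 per Mb, against 15.2, 31.6, 46.8 and 84.7 per Mb. The ratio of the densities was 0.793 in wild-type spermatocytes and 0.875 in round spermatids of the same genotype, and for BD1del 0.894 in spermatocytes and 0.942 in round spermatids. In wild-type spermatocytes the members were longer than the islands of the rest of the chromosome, with a median of 2400 against 1800 bases, so that fewer islands covered a like share. The median fold of the members was above that of the rest in every list, 1.79 against 1.76, 2.82 against 2.72, 4.08 against 3.70 and 7.37 against 7.16. The summed ChIP over scaled control reads was above that of the rest in BD1del spermatocytes alone. It was 1.65 against 1.72, 2.40 against 2.44, 3.66 against 3.41 and 5.16 against 5.30. The gap between neighbouring members had a median of 49800, 23000, 14600 and 8000 bases in the 4 lists.

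The same 36 Mb stretch of the other 18 autosomes gave a second reference. The t-complex region ranked 7 among the 19 autosomes in wild-type spermatocytes, wild-type round spermatids and BD1del spermatocytes, and 5 in BD1del round spermatids. The median of the other autosomes was 2.61%, 3.75%, 5.30% and 4.99% in the 4 lists. Chromosome 1 was far above all others, at 28.9% in wild-type spermatocytes and 24.6% in round spermatids of the same genotype, and for BD1del 13.2% in spermatocytes and 12.5% in round spermatids. By coverage the t-complex region stood within the range of the other autosomes, above the median of the other autosomes in 4 lists and below the rest of its chromosome in 3.

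**Figure D1:**
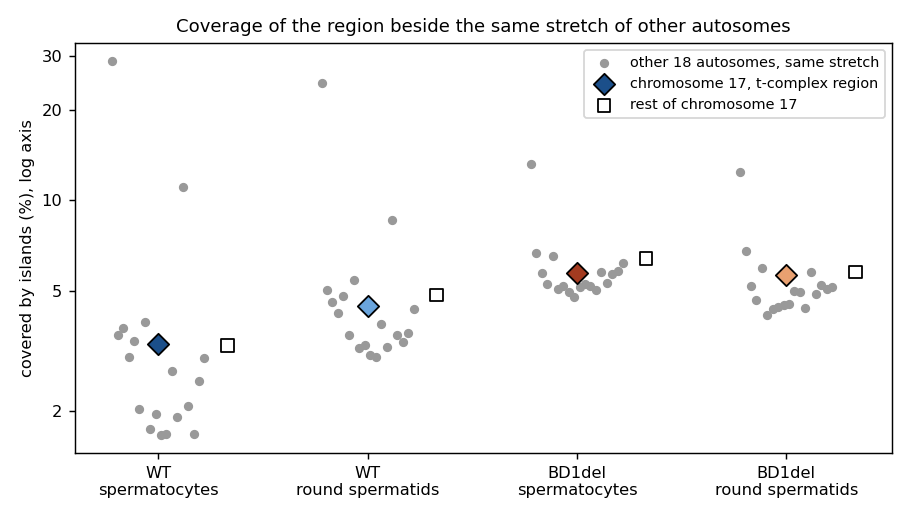
Percent of the 36 Mb from 4 to 40 Mb covered by Brdt islands (log axis) in each list, with chromosome 17 as a filled diamond, each of the other 18 autosomes as a grey point, and the rest of chromosome 17 as an open square. The diamond lies at 3.33%, 4.45%, 5.74% and 5.66%, within the cloud of other autosomes in every list, and the highest grey point is chromosome 1.

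Along the region, coverage varied most in wild-type spermatocytes. Over its 36 bins of 1 Mb, coverage ran from 0.54 to 7.46% with a median of 3.29% in wild-type spermatocytes, and from 2.46 to 8.38% with a median of 4.26% in wild-type round spermatids. It ran from 3.36 to 10.0% with a median of 5.39% in BD1del spermatocytes, and from 2.92 to 10.68% with a median of 5.54% in BD1del round spermatids. The standard deviation over bins, as a share of the mean, was 0.586 in wild-type spermatocytes against 0.312, 0.262 and 0.310 in the other lists. In wild-type spermatocytes 6 bins were under 1% covered, and in the other lists none was. Of the 360 steps of 100 kb, 118 held no island in wild-type spermatocytes, against 22, 8 and 1 in the others. Wild-type spermatocytes also had the fewest members, 4 to 22 per bin, against 15 to 47, 30 to 58 and 38 to 122 in the others. The part of island number in this variation and in the empty steps was not tested.

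The lists differed in which end of the region was more covered. From 4 to 16, 16 to 28 and 28 to 40 Mb, coverage was 2.91%, 3.21% and 3.87% in spermatocytes and 4.13%, 4.66% and 4.57% in round spermatids of wild type. In BD1del it was 6.52%, 5.10% and 5.60% in spermatocytes and 6.38%, 5.08% and 5.52% in round spermatids. The proximal 12 Mb were thus the least covered in both wild-type lists and the most covered in both BD1del lists. The first Mb, at 4 to 5 Mb, was the least covered bin of both wild-type lists at 0.54% and 2.46%, and was 7.46% and 5.36% covered in BD1del spermatocytes and round spermatids. The last Mb, at 39 to 40 Mb, was 7.0%, 5.78% and 6.2% covered in the first 3 lists. In BD1del round spermatids it was 2.92% covered, the lowest bin of that list.

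**Figure D2:**
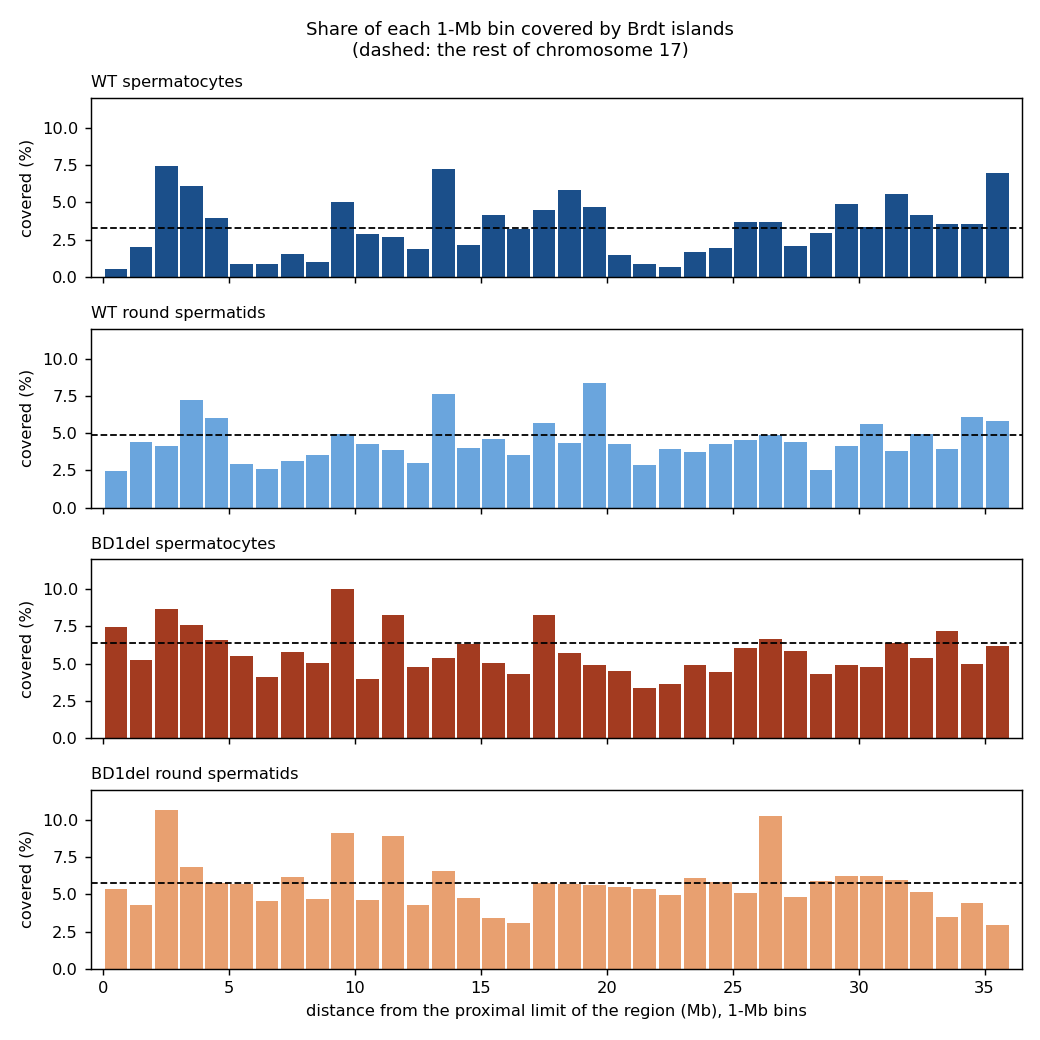
Percent of each 1-Mb bin covered by Brdt islands in the 4 lists, against distance from the proximal limit of the region in Mb, with the rest of chromosome 17 as a dashed line. The first bin is the lowest bar in both wild-type panels (0.54% and 2.46%), and the last bin is the lowest in BD1del round spermatids (2.92%).

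The most covered bins were shared in part. In wild-type spermatocytes they were 6 to 7 Mb at 7.46%, 17 to 18 Mb at 7.28% and 39 to 40 Mb at 7.0%. In wild-type round spermatids they were 23 to 24 Mb at 8.38%, 17 to 18 Mb at 7.62% and 7 to 8 Mb at 7.22%. In BD1del spermatocytes they were 13 to 14 Mb at 10.0%, 6 to 7 Mb at 8.64% and 15 to 16 Mb at 8.28%. In BD1del round spermatids they were 6 to 7 Mb at 10.68%, 30 to 31 Mb at 10.28% and 13 to 14 Mb at 9.08%. The bin at 6 to 7 Mb was among the top 3 of 3 lists, and was 4.14% covered in wild-type round spermatids. The median control reads per kb of its islands were 0.934, 1.18, 1.21 and 1.25 times those of the other members. Their median fold was 1.914 against 1.777, 2.341 against 2.841, 3.114 against 4.128 and 4.125 against 7.505. The part of the control in the coverage of this bin was not tested.

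Between the stages of wild type, coverage was higher in round spermatids in 29 of 36 bins of the t-complex region, against 51 of 55 bins on the rest of the chromosome. The bin with the largest gain was 23 to 24 Mb, 4.68% in spermatocytes and 8.38% in round spermatids. The bin at 26 to 27 Mb stood at 0.64% and 3.9%, and 24 to 25 Mb at 1.5% and 4.24%. The 7 bins that went the other way were led by 6 to 7 Mb, 7.46% in spermatocytes and 4.14% in round spermatids, and 35 to 36 Mb, 5.58% and 3.78%. Limited to each list's 10000 islands of lowest p, coverage of the whole region was 1.09% in spermatocytes and 0.553% in round spermatids. That limit left 153 and 142 members. With the number of islands fixed, the order of coverage is set largely by island length, so it cannot decide the direction.

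Between the stages of BD1del, no direction prevailed in the region: 17 bins were higher in round spermatids, 18 in spermatocytes and 1 was equal. On the rest of the chromosome 17 of 55 bins were higher in round spermatids. Round spermatids were above spermatocytes by most at 30 to 31 Mb, 10.28% against 6.68%, and at 6 to 7 Mb, 10.68% against 8.64%. Spermatocytes were above round spermatids by most at 37 to 38 Mb, 7.2% against 3.46%, at 39 to 40 Mb, 6.2% against 2.92%, and at 21 to 22 Mb, 8.24% against 5.76%.

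Between the genotypes, BD1del was more covered in 32 of 36 bins in spermatocytes and 26 of 36 in round spermatids. On the rest of the chromosome it was 54 and 45 of 55 bins. In spermatocytes the largest differences were at 4 to 5 Mb, 0.54% in wild type and 7.46% in BD1del, at 15 to 16 Mb, 2.68% and 8.28%, and at 13 to 14 Mb, 5.02% and 10.0%. Wild type was above BD1del at 17 to 18 Mb, 7.28% against 5.38%, and in 2 further bins by less than 1 percentage point. In round spermatids the largest differences were at 6 to 7 Mb, 4.14% in wild type and 10.68% in BD1del, and at 30 to 31 Mb, 4.88% and 10.28%. At 39 to 40 Mb wild-type round spermatids were above BD1del, 5.78% against 2.92%, and at 23 to 24 Mb likewise, 8.38% against 5.62%. Limited to each list's 10000 islands of lowest p, BD1del covered less of the region than wild type. The shares were 0.462% against 1.09% in spermatocytes and 0.224% against 0.553% in round spermatids. The number of islands is then fixed, so this order is set largely by island length and cannot decide the direction.

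Over the 36 bins, which share mappability, base composition and gene content in all lists, the Pearson correlation of coverage was 0.641 between the stages of wild type and 0.556 between those of BD1del. Between the genotypes it was 0.446 in spermatocytes and 0.114 in round spermatids. Over the 55 bins of the rest of the chromosome the values were 0.672, 0.587, 0.412 and 0.489. The genotypes' round spermatid profiles had the lowest of the 4 correlations in the region. The difference between region and rest in this correlation was not tested.

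Of the wild-type spermatocyte members, 225 of 434 (51.8%, exact Clopper-Pearson 95% interval 47.0 to 56.6%) shared at least 1 base with a wild-type round spermatid island. Over all chromosomes the share was 58.9%. Read from round spermatids, 235 of 996 members (23.6%, 21.0 to 26.4%) met a spermatocyte island, against 30.3% over all chromosomes. These intervals, and those below, cover counting error only, since reads were counted without molecular identifiers and neighbouring islands are not independent. On the rest of chromosome 17 the shares were 57.9% and 28.7%, and on the autosomes other than chromosome 1 they were 54.9% and 23.4%.

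In BD1del the stages shared less, in the region and over all chromosomes alike. Of the spermatocyte members 288 of 1505 (19.1%, 17.2 to 21.2%) met a round spermatid island, against 24.2% over all chromosomes. Of the round spermatid members 293 of 2874 (10.2%, 9.11 to 11.4%) met a spermatocyte island, against 13.9%. On the autosomes other than chromosome 1 the shares were 19.2% and 10.7%. The BD1del members were also shorter, with medians of 1200 and 600 bases against 2400 and 1400 in wild type. The part of length in the lower shares was not tested.

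Between the genotypes, 104 of 434 wild-type spermatocyte members (24.0%, 20.02 to 28.3%) met a BD1del spermatocyte island, against 35.0% over all chromosomes. Of the BD1del spermatocyte members 112 of 1505 (7.44%, 6.17 to 8.89%) met a wild-type one, against 11.9%. In round spermatids 204 of 996 wild-type members (20.5%, 18.02 to 23.1%) met a BD1del island, against 29.1%, and 208 of 2874 BD1del members (7.24%, 6.32 to 8.25%) met a wild-type one, against 11.2%. All 8 shares of the t-complex region lay below those over all chromosomes and below those of the rest of chromosome 17. Without chromosome 1, the shares over the other autosomes were 24.8%, 6.68%, 23.1% and 8.18% for the 4 genotype values. The region was below them for 3 of those 4 values and above for BD1del spermatocytes met by wild type. All 8 shares of the region lay nearer to those of the autosomes other than chromosome 1 than to those over all chromosomes.

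**Figure D3:**
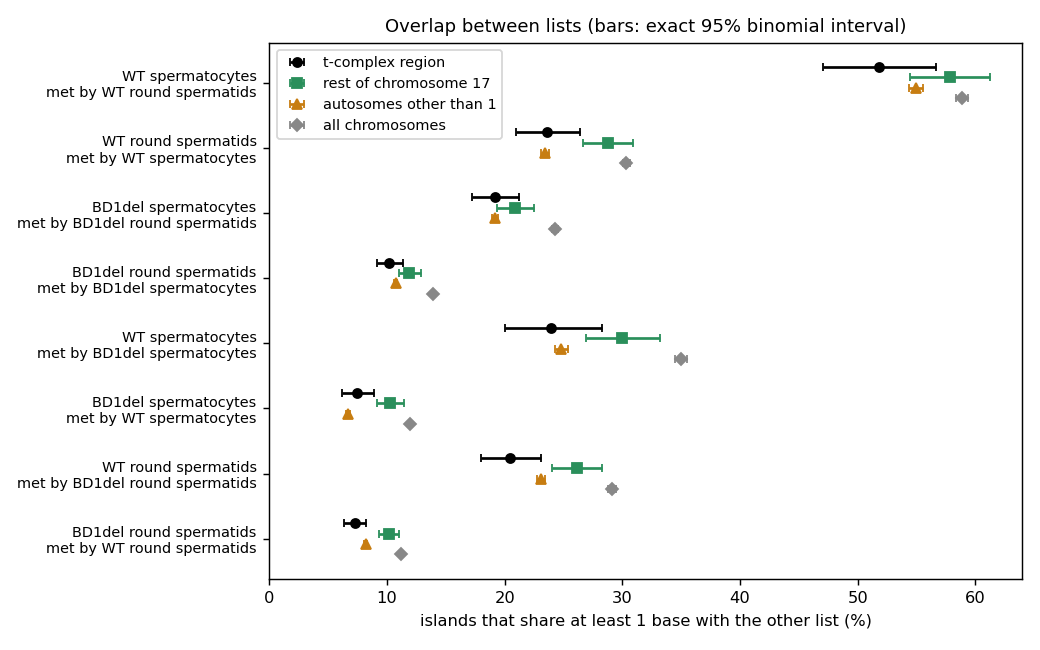
Percent of the islands of 1 list that share at least 1 base with an island of another list, for the t-complex region, the rest of chromosome 17, the autosomes other than chromosome 1 and all chromosomes, with exact 95% binomial intervals. The region (black) lies below the rest of its chromosome (green) in all 8 rows, with overlapping intervals for both BD1del stage rows and both rows of wild-type spermatocytes, and near the autosomes other than chromosome 1 (orange).

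Few members were found in all 4 lists. Of the wild-type spermatocyte members 39 of 434 (8.99%) met islands of all 3 other lists, against 19.9% over all chromosomes and 13.9% on the rest of chromosome 17. The corresponding counts were 32 of 996 (3.21%, against 9.65%) in wild-type round spermatids, 33 of 1505 (2.19%, against 6.26%) in BD1del spermatocytes and 31 of 2874 (1.08%, against 3.52%) in round spermatids of BD1del. On the rest of the chromosome the last 3 shares were 6.24%, 4.29% and 2.29%, and on the autosomes other than chromosome 1 the 4 shares were 10.8%, 4.26%, 2.62% and 1.42%.

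Members met in no other list numbered 125 in wild-type spermatocytes (28.8%, against 24.2% over all chromosomes) and 559 in wild-type round spermatids (56.1%, against 48.9%). In BD1del they numbered 1089 in spermatocytes (72.4%, against 67.4%) and 2365 in round spermatids (82.3%, against 77.7%). On the autosomes other than chromosome 1 the 4 shares were 28.4%, 55.2%, 73.1% and 81.8%. The region lay nearer to these than to the shares over all chromosomes in every list. In 3 lists the members met in no other list had the highest median fold. It was 3.33 in wild-type round spermatids, against 2.38 for members met in all other lists. It was 4.37 against 3.81 in BD1del spermatocytes and 8.03 against 3.84 in round spermatids of BD1del. In wild-type spermatocytes the medians were 1.83 and 1.85. In every list the members met in all others were longer, with a median of 3600 against 1800 bases in wild-type spermatocytes and 1800 against 400 bases in BD1del round spermatids, so that length and overlap moved together; the part of length in the shares was not tested.

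When islands of all lists that share bases were joined into places, the region held 4838 places. Islands of both wild-type lists and no other made up 123 of them (2.54%, against 2.3% over all chromosomes), and islands of both BD1del lists alone made up 194 (4.01%, against 4.53%). Both spermatocyte lists alone gave 25 places (0.517%, against 0.488%), and both round spermatid lists alone gave 97 (2.00%, against 2.32%). Places of all 4 lists numbered 41, 0.847% of the places of the region, against 1.58% on the rest of chromosome 17 and 2.2% over all chromosomes. Stretches of bases that lay under islands of all 4 lists at once numbered 32 and summed to 24.2 kb, 0.889 per Mb, against 108 stretches and 110.2 kb on the rest of the chromosome, 1.95 per Mb.

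Of these common stretches, the 5 with the highest lowest fold among islands with at least 10 control reads, were taken one by one. The first was chr17:34740401-34740800, where the deposited fold was 9.46 in wild-type spermatocytes and 4.94 in round spermatids of the same genotype, and for BD1del 11.9 in spermatocytes and 9.89 in round spermatids. Wild-type round spermatids were lowest there. The next was chr17:14780401-14780600, a single window, with folds of 5.37, 3.79, 5.31 and 5.75. Its values were close together, and its ChIP reads numbered 60, 20, 49 and 19.

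At chr17:33897401-33897600 the folds were 6.41, 4.25, 18.5 and 3.54, with BD1del spermatocytes far above the others on 36 ChIP and 11 control reads. At chr17:35813401-35813800 they were 2.81, 3.18, 3.86 and 7.49, with BD1del round spermatids highest. The median folds over all members were 1.79, 2.82, 4.08 and 7.37, so the value of BD1del round spermatids there was near the median of their list. At chr17:29238401-29240600 the folds were 2.55, 2.56, 3.81 and 13.25. There the first 3 lists had 1 long island each, of 11200, 9800 and 8800 bases. BD1del round spermatids had 2 short ones that together covered 35.7% of the wild-type spermatocyte island. The other of the 2, chr17:29244601-29246400, had a fold of 6.10. Control reads stood at 117, 152 and 96.9 per kb in the long islands and at 13.6 and 32.2 in the 2 short ones. The part of the control in these folds was not tested.

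The island of highest fold in BD1del spermatocytes, on at least 10 control reads, was chr17:4626001-4626800 in the first Mb of the region. The islands there held 74 ChIP and 56 control reads in wild-type spermatocytes and 93 and 65 in round spermatids of the same genotype. For BD1del they held 1426 ChIP and 88 control reads in spermatocytes and 1576 and 377 in round spermatids. The folds were 2.36, 5.42, 91.4 and 22.8, so both BD1del lists were above both wild-type lists. The control also differed there, at 21.5 and 29.5 reads per kb in wild type and 110.0 and 471 in BD1del.

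**Figure D4:**
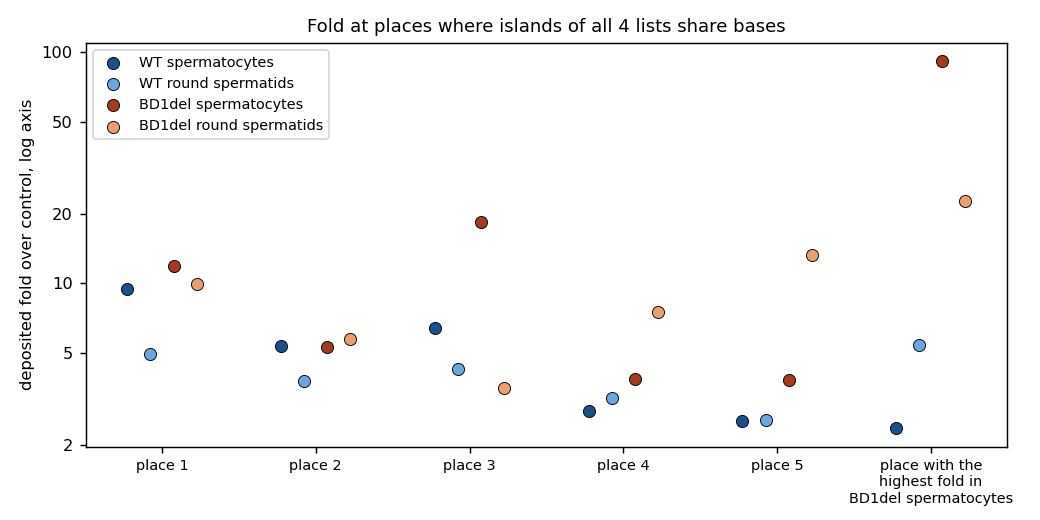
Deposited fold over control (log axis) in the 4 lists at the 5 common stretches in the order of the text and at 1 place in the first Mb. That place held the highest fold of BD1del spermatocytes among islands with at least 10 control reads. The folds at place 2 lie between 3.79 and 5.75, and at the last place between 2.36 and 91.4.

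The island with the most reads lay at the same place in every list. In wild-type spermatocytes it was chr17:13740601-13749400, with 10607 ChIP and 15304 control reads and a fold of 1.24. In wild-type round spermatids it was chr17:13742201-13747000, with 8475 and 15993 reads and a fold of 2.01. In BD1del it held 4838 and 6416 reads with a fold of 4.25 in spermatocytes and 2846 and 4207 reads with a fold of 3.68 in round spermatids. That one place took 15.8%, 14.6%, 6.58% and 3.05% of the ChIP reads of all members. Its control density, 1739, 3332, 1782 and 1502 reads per kb, stood far above the median bin of the region, 35.9, 33.8, 48.2 and 40.4 per kb. It was thus a place dense in control reads as well as in ChIP reads. Without it, the summed ChIP over scaled control reads of the members went from 1.65 to 1.77, 2.40 to 2.48, 3.66 to 3.62 and 5.16 to 5.23.

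That island belonged to a dense stretch, chr17:13300001-13800000, chosen after its values were seen. Its islands had a median of 70.99, 78.8, 91.8 and 71.8 control reads per kb, 1.98, 2.38, 1.95 and 1.79 times the other members. Their median fold was below that of the other members in every list, at 1.42 against 1.81, 1.86 against 2.87, 2.01 against 4.14 and 3.01 against 7.45. The stretch was 4.8%, 6.64%, 14.7% and 12.4% covered, and it lies in the bin that led BD1del spermatocytes. The part of control density in the coverage of that bin was not tested.

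A second dense stretch, chr17:30600001-31100000, also chosen after its values were seen, was dense in control reads in 1 list alone. Its coverage was above that of the region in every list. In the first 3 lists it was 6.76%, 6.12% and 9.52% covered, against 3.33%, 4.45% and 5.74% of the region. In BD1del round spermatids its 83 islands covered 15.4% of it and had a median of 65.0 control reads per kb, 1.63 times the other members, with a median fold of 3.71 against 7.49. In the other lists its control density was below that of the other members, at 21.8, 27.8 and 39.3 reads per kb or 0.605, 0.823 and 0.827 times. Its folds there were above those of the other members, 2.93 against 1.76, 3.14 against 2.82 and 4.66 against 4.05. The Mb before the stretch had 36.6 and the Mb after it 35.0 control reads per kb in BD1del round spermatids. The bin at 30 to 31 Mb, where BD1del round spermatids exceeded every other list, thus holds a stretch in which the control of that list was itself high; the part of the control was not tested.

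**Figure D5:**
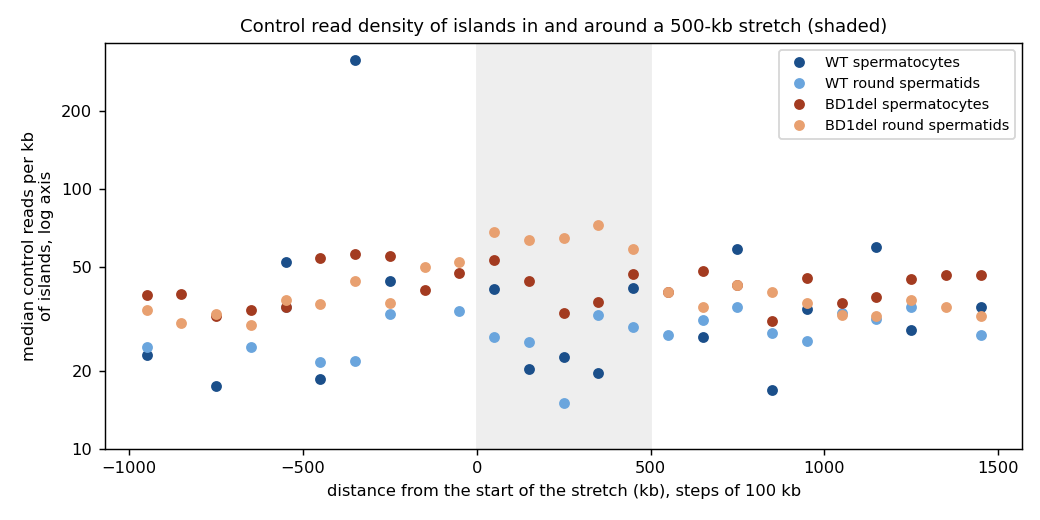
Median control reads per kb of the islands in 100-kb steps (log axis), in and around a 500-kb stretch (shaded), with 1 point per list and step; steps without an island have no point. In the shaded steps BD1del round spermatids stand above the other 3 lists, while in most steps outside they do not.

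At chr17:7136201-7142800 the wild-type lists differed from BD1del spermatocytes in control as well as in ChIP reads. The wild-type spermatocyte island held 2477 ChIP and 2131 control reads (fold 2.08), and the wild-type round spermatid island there held 1327 and 2512 (fold 2.00). In BD1del spermatocytes 2 islands with 152 ChIP and 42 control reads covered 54.5% of it. One of them, chr17:7138001-7140800, had 90 ChIP and 13 control reads and a fold of 39.04. BD1del round spermatids had no island there. Control reads stood at 323 and 369 per kb in the wild-type islands and at 4.64 per kb in that BD1del island. Control reads are given only within called islands, so BD1del round spermatids have no value there. The part of the control in these folds was not tested.

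Some high-fold members stood in 1 list only. In wild-type spermatocytes the 3 highest folds on at least 10 control reads were 9.71 at chr17:37095201-37096600, 9.66 at chr17:36052801-36055200 and 9.46 at chr17:25022801-25025000. The first was also an island of wild-type round spermatids (fold 5.21), the next was met in both BD1del lists (5.24 and 6.35), and the last was met in no other list. In wild-type round spermatids the highest fold on at least 10 control reads, 18.1 at chr17:9017801-9018600 on 62 ChIP and 13 control reads, was met nowhere else. In BD1del spermatocytes 20.2 at chr17:29466801-29467600, on 43 and 12 reads, was met nowhere else. In BD1del round spermatids the highest on at least 10 control reads, 29.7 at chr17:21627401-21627800 on 60 and 11 reads, was also alone. A list without an island at a place shows only that none was called there at that depth.

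All 4 lists had islands at the distal limit of the region. One spanned chr17:39979001-39986000 in BD1del spermatocytes, with 1234 ChIP and 1607 control reads and a fold of 4.33. In wild-type spermatocytes the island there had 1293 and 956 reads (fold 2.42), in BD1del round spermatids 531 and 1248 (fold 2.32), and in wild-type round spermatids 2 islands held 426 and 1076 reads (highest fold 1.59). The place lies in the bin that was the least covered of BD1del round spermatids.

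At places where islands of both lists met, folds ranked alike to a moderate degree. The Spearman correlation of fold over pairs of overlapping islands, which share sequence and mappability, was 0.486 between the wild-type stages (236 pairs) and 0.392 between the BD1del stages (299 pairs). Between the genotypes it was 0.443 in spermatocytes (112 pairs) and 0.227 in round spermatids (211 pairs). Round spermatids of the 2 genotypes thus had the lowest rank correlation of fold as well as the lowest correlation of bin coverage in the region.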

How the data were processed

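Anti-Brdt ChIP-seq of 8 mouse libraries (4 ChIP, 4 input) was read from 4 deposited island lists, called with SICER on the build mm9 per the submitters' processing notes. Labels of the lists give windows of 200 and gaps of 600 bases; no source used here gives the aligner, read filters or the input behind each list. Each island carries deposited values: whole-number ChIP and control read counts without normalization, the authors' p-value and FDR (limit 0.01), and the authors' fold, a ratio of ChIP to control reads scaled by library size. The 4 inputs enter only through the control counts.

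Coverage, overlap (at least 1 base) and bins were computed with Python 3.11.15, pandas 2.3.3 and SciPy 1.17.1, and the functions were tested on simulated intervals. Members and lists were chosen with earlier results of these data known. Named islands were the 3 of highest fold (at least 10 control reads), the 3 longest, the 3 with most ChIP reads, the 3 of highest fold not met in each comparison, and the 5 common stretches of highest lowest fold, each with at least 10 control reads; named bins were the 3 at each extreme. The reference used here was not mm9, so no gene, promoter or sequence was assigned and the planned gene list and promoter overlap were not run. Alternatives covered stricter FDR, fold, rank, control, overlap, merging and bin settings.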

Additional observations from a re-analysis of the deposited data

Results flagged for a closer look

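Between spermatocytes and round spermatids, wild type and BD1del went opposite ways in several values of the t-complex region. None of these differences was tested, since each group had 1 library. Coverage of the region went from 3.33 to 4.45% from spermatocytes to round spermatids in wild type and from 5.74 to 5.66% in BD1del, a difference of -1.20 percentage points between the 2 changes. The BD1del change was only -0.0806 points, and it turned positive under 4 of the alternatives given below. Coverage relative to the rest of chromosome 17 went from 1.01 to 0.917 in wild type and from 0.896 to 0.979 in BD1del, a difference of 0.178. The ratio was lower in round spermatids of both genotypes with FDR at most 1e-10, from 1.25 to 1.02 and from 0.9503 to 0.939, and with 10000 islands per list, from 1.24 to 1.06 and from 1.13 to 0.809.

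Each genotype taken alone, 29 of the 36 bins of 1 Mb were higher in round spermatids in wild type and 17 in BD1del. On the rest of chromosome 17 it was 51 and 17 of 55 bins. Opposite bins were not counted on the rest, so their number cannot be called particular to the region. Of the 36 bins, 18 were opposite: 15 were higher in round spermatids of wild type and lower in those of BD1del, and 3 did the reverse. The 3 were 6 to 7 Mb, where coverage went from 7.46 to 4.14% in wild type and from 8.64 to 10.68% in BD1del, a difference of 5.36 points, 32 to 33 Mb (1.96 points) and 33 to 34 Mb (2.08). Of the 15, the largest differences were at 37 to 38 Mb, from 3.56 to 3.94% and from 7.2 to 3.46% (-4.12), at 4 to 5 Mb, from 0.54 to 2.46% and from 7.46 to 5.36% (-4.02), and at 21 to 22 Mb, from 4.52 to 5.7% and from 8.24 to 5.76% (-3.66). The others, by the start of the bin, were 5 Mb (-3.34), 7 Mb (-1.84), 8 Mb (-2.94), 12 Mb (-2.90), 16 Mb (-1.62), 18 Mb (-3.44), 19 Mb (-2.06), 20 Mb (-1.60), 29 Mb (-1.82), 31 Mb (-3.36), 36 Mb (-1.04) and 38 Mb (-3.08).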

How the results depend on the processing

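Coverage and overlap depend on where the lists are limited. With FDR at most 1e-10, coverage of the region was 0.993%, 1.24%, 3.43% and 3.80% (wild-type spermatocytes and round spermatids, then BD1del), overlap of spermatocyte members with round spermatids was 30.9% in wild type and 14.5% in BD1del, and the bin correlation between genotypes was 0.578 in spermatocytes and 0.317 in round spermatids. With fold at least 2, coverage was 0.930%, 3.06%, 5.06% and 5.37%, wild-type stage overlap 43.5%, and the stage correlations 0.461 and 0.373. Limited to each list's 10000 islands of lowest p, coverage was 1.09%, 0.553%, 0.462% and 0.224%. The difference between wild-type stages and the excess of BD1del over wild type were then reversed. The region held 153, 142, 158 and 140 members under that limit, so this order is set largely by island length. It cannot decide the direction of either difference. Under the same limit the 4 overlaps were 17.6%, 5.70%, 8.50% and 4.93%, and the share met in all other lists was 3.27%. With an overlap of at least 50% of the island, these 5 shares were 34.1%, 9.37%, 10.1%, 9.24% and 2.07%. In 2-Mb bins the stage correlations were 0.825 and 0.448. BD1del round spermatid coverage was 5.21% with at least 10 control reads, 6.05% with islands within 1000 bases merged and 5.42% without the 2 dense stretches (chosen after seeing the data), where BD1del spermatocytes stood at 5.56%. Without the last Mb, wild-type spermatocytes stood at 3.23%. Round spermatids were above spermatocytes in BD1del with FDR at most 1e-10, with fold at least 2, with merged islands and without the last Mb.

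Over the alternatives 52 of the main values that could move stayed within their limits, which were exact 95% binomial intervals for overlaps and for coverage (counted in 200-base windows) and 0.1 for correlations, and 36 did not; another 8 could not move, since no bin was covered to 20% and no island lay across a limit. No replicates, no mm9 annotation and unequal depth limit every comparison between lists. The ratio of region to rest of chromosome 17 crossed 1 in wild-type spermatocytes without the dense stretches (0.991) or the last Mb (0.980), in wild-type round spermatids with FDR at most 1e-10 (1.02) or 10000 islands (1.06), and in BD1del spermatocytes with 10000 islands (1.13).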

Other observations

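From 24 to 29 Mb, 5 neighbouring bins chosen after their values were seen, round spermatids were more covered than spermatocytes in both genotypes in every bin. In wild type the bins went from 1.5 to 4.24%, 0.9 to 2.84%, 0.64 to 3.9%, 1.7 to 3.74% and 1.98 to 4.28%. In BD1del they went from 4.54 to 5.46%, 3.36 to 5.38%, 3.62 to 4.96%, 4.94 to 6.08% and 4.46 to 5.84%. Bins of this stretch held the highest ratio of summed ChIP to scaled control reads of any bin in the region. The highest was at 24 to 25 Mb in wild-type spermatocytes (3.09) and at 26 to 27 Mb in wild-type round spermatids (3.75). It was at 25 to 26 Mb in both BD1del lists (5.80 and 8.05). The bin with the lowest median control reads per kb of its islands also lay in this stretch, except in wild-type spermatocytes. That bin was 26 to 27 Mb in wild-type round spermatids and 25 to 26 Mb in BD1del round spermatids, as for the ratio. In BD1del spermatocytes it was 27 to 28 Mb. The part of the control in these ratios was not tested.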
